A study of Mus musculus with 20 samples.

Results

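Chromatin modifiers and remodelers were followed through 24 h of oxygen-glucose deprivation (OGD) in mouse cortical neurons. The genes were chosen by symbol: those named Hdac, Sirt, Kat, Kdm, Kmt, Setd, Chd, Brd or Dpf plus a digit, those starting with Smarc, Arid1 or Dnmt, Tet1 to Tet3, and Crebbp, Ep300, Ezh2 and Ehmt1. The rule found 85 of the 15782 genes named on the array, with 132 of its 24620 probes. A probe was tested when its detection value was over 0.99 (p under 0.01) on 3 or more of the 20 arrays, which held for 79 chromatin probes of 64 genes among 10447 probes in all. Ep300 had no named probe.

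Histone tails carry acetyl and methyl groups that are added by acetyltransferases and methyltransferases and removed by deacetylases (HDACs), sirtuins and demethylases. Remodelers of the SWI/SNF (BAF), ISWI and CHD families use ATP to move nucleosomes, and neurons build their BAF complexes with subunits of their own, such as Dpf1. Several of these enzymes depend on metabolites that change when oxygen and glucose are lost: JmjC demethylases and Tet enzymes need oxygen, sirtuins need NAD, and acetyltransferases need acetyl-CoA.

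The cells were primary cortical neurons of fetal Swiss albino mice, taken on gestation day 15 or 16 and kept to culture day 7. OGD imitates in a dish what stroke tissue meets, and it was kept up without a break for 10 min, 5 h, 8 h, 15 h or 24 h (3 arrays each), and 5 control arrays came from cultures of the same kind that received no agent. The labels describe the condition as hypoxic and name no genetic change in any group, and such cultures can also hold glia. Total RNA was hybridised as biotinylated cRNA to Illumina MouseRef-8 bead arrays, 1 sample per array, and the labels do not say whether replicates were separate cultures, so p-values measure the spread between these arrays, which may be technical.

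The arrays had median signals of 53.1 to 65.4 and detected 37 to 40.9% of probes. The arrays sat on 3 slides: slide 1 held control replicate 1 and the 10 min arrays, slide 2 control replicates 4 and 5 with 5 h and 8 h, and slide 3 control replicates 2 and 3 with 15 h and 24 h. Control replicate 2 stood apart from the other controls on the first principal component (9.7 against -24.9 to -14.7), on the side of the 10 min, 15 h and 24 h arrays, and 5 h replicate 1 and 8 h replicate 3 stood apart on the third (-19.3 and -22.5). Marker genes of other cell types moved at the same times. Each marker gene was counted by its tested probe with the highest mean level. All 10 tested astrocyte genes were higher at 15 h, and their summed signal ranged from 20259 to 29566 in the controls and from 39190 to 42182 at 15 h. Of 11 neuron genes, all 11 were lower at 15 h, with sums of 21804 to 25873 in the controls and 15401 to 16871 at 15 h. At 10 min 6 astrocyte genes were higher and 4 neuron genes lower (sums of 31948 to 35157 and of 20274 to 21436), and at 24 h 9 and 7 (36078 to 40913 and 17731 to 20457). No gene of either list passed at 5 h or 8 h. With slide added to the model as a block, only Apoe, Clu and Gfap and the neuron gene Elavl3 passed at 10 min. At 15 h all of these genes but Gfap, Fgfr3, Elavl3 and Gad1 passed. At 24 h the called astrocyte genes other than Sox9 passed, and of the neuron genes only Slc17a7, Camk2a and Nefm. The neuron markers Dcx, Stmn2 and Gap43 had mean signals of 4112, 5038 and 6452, while Snap25, Nefl and Gad2 were not detected on 3 arrays. The astrocyte markers Slc1a3 and Gja1 and the oligodendrocyte lineage marker Olig1 also gave signals, of 7840, 7510 and 8584, Slc1a2, S100b, Mog and Mag were not detected on 3 arrays, and the microglial sum lay between 154 and 208 in the controls and between 266 and 289 at 15 h. Of 11 progenitor genes 7 were higher and 1 lower at 15 h, and of 8 cycling genes 0 and 4. In bulk RNA, fewer cells of a type and less RNA per cell cannot be told apart, and the part of these markers in the results below was not tested.

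The promoters of 4 genes are shown because both probes of Dpf1 fell at 15 h and because Kmt5a, Kmt5b and Kmt5c, which act one after another on the same histone residue, were among the members with the smallest adjusted p; the 4 were chosen after their values were seen. Each run reads 5′ to 3′ on the plus strand of GRCm38.p6 (RefSeq) and ends at the last base before the RefSeq gene. Capitals mark the core letters of the hypoxia response element (ACGTG or GCGTG, on either strand).

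Kmt5a, chr5:124439680-124439929: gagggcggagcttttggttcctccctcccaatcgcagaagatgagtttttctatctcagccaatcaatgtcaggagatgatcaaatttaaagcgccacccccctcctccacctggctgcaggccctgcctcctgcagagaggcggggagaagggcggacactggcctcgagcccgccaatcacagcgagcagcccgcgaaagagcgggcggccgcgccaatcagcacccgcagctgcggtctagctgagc

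Kmt5b, chr19:3767171-3767361: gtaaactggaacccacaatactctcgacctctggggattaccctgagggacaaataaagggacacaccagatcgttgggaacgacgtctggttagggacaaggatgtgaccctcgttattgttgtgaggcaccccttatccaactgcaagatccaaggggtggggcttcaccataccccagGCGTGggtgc

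Kmt5c, chr7:4739877-4740091: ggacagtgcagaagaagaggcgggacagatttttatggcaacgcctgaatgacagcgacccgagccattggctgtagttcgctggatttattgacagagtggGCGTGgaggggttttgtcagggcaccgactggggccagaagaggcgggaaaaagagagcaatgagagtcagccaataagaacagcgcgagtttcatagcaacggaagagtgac

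Dpf1, chr7:29303755-29303951: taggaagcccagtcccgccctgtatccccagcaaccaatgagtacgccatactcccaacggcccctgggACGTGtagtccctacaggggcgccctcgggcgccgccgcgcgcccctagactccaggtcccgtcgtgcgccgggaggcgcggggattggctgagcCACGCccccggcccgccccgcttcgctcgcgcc

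Dpf1 held 2 of these cores, Kmt5b and Kmt5c 1 each, and none was found in the Kmt5a window. The first of 3 listed starts was taken for Kmt5a, and the first of 2 for Kmt5b. The windows of Kmt5b, Kmt5c and Dpf1 were cut to 191, 215 and 197 bases, while the shares below use the full 250. RefSeq's promoter table held 54 of the 64 tested genes, with 73 promoters; Brd8, Hdac1, Hdac10, Hdac3, Kdm3b, Kdm4b, Kmt2b, Setd1b, Smarca5-ps and Smarce1 were not matched. A core lay in the 250 bases before the start of 49.3% of these 73 promoters, against 38.6% of all 32851. The letters ACGTG occurred in 15.1% against 16.6% and GCGTG in 42.5% against 28.2%, and the same windows had a median GC content of 62.8% against 52.4%. A match is a description of letters and not a binding site.

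Levels are given below as log2 normalized intensity, and differences as log2 differences from the controls with the standard error of limma's fit, which pooled the spread of all 6 groups. Adjusted p-values are two-sided limma p-values with Benjamini-Hochberg adjustment over all 10447 probes of a comparison, and a probe is called higher or lower under 0.05. Mean signals of the tested probes ran from 63.4, on 1 probe of Crebbp, to 2.5e+03 for the deacetylase Hdac2 and 4.91e+03 for Brd3, a bromodomain reader of acetylated histones. Signals of different probes give no order of transcript levels. Probes of Crebbp (7040050), Sirt6 (540731) and Kmt5b (2190292) were detected on exactly 3 arrays, while a second Sirt6 probe (1400735) was detected on 2 arrays and the Tet2 probe (4560347) on 1. No tested probe remained for 21 genes: Tet2, Tet3, Dnmt3a, Dnmt3l, Hdac9, Kat2b, Kmt2d, Setd7, Kdm2a, Kdm4d, Kdm5c, Kdm7a, Kdm8, Brd8dc, Chd1, Chd1l, Chd6, Dpf2, Dpf3, Smarca2 and Smarcal1. Smarca5-ps is a pseudogene that shares sequence with Smarca5, so the split between them is uncertain.

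At 10 min, 2 chromatin probes were higher and 8 lower than in the controls. The lower ones were both Kmt5a probes, Kdm6a, Hdac4, Kdm4c, Setd1a, Arid1a and Smarca5-ps, and the higher ones Brd7 and Sirt2. The 10 probes are 12.7% of the 79, against 20.4% of all tested probes (11% higher, 9.39% lower). With slide as a block, 6 chromatin probes passed, all lower, beside 11.8% of all probes. All 3 arrays lay outside the range of the controls for 12.7% of the chromatin probes and 17.3% of all probes. Without control replicate 2, 20 chromatin probes were called (7 higher, 13 lower).

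At 5 h, 6 probes were higher and 2 lower: Dpf1, Dnmt1, Setd3, Arid1a, Smarca5 and Crebbp rose, and Kat5 and 1 Chd4 probe fell. These 8 probes are 10.1% of the chromatin probes, against 2.83% of all probes (1.68% higher, 1.15% lower), and the groups did not overlap for 17.7% against 10.4%. With slide as a block in limma, none of the 79 and 0% of all 10447 probes passed. Without the block, 21 of the 79 chromatin probes and 2281 of all 10447 probes had an unadjusted p under 0.05. Without control replicate 2, 3 of the 79 probes were called, and without the 2 arrays that stood apart also 3, all of them higher. Of all 10447 probes, 216 and 245 passed in these 2 fits.

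At 8 h, limma called none of the 79 chromatin probes and 0% of all probes. The unadjusted p was under 0.05 for 14 chromatin probes and 668 probes in all. All 3 arrays lay outside the range of the controls for 3.8% against 2.9%.

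At 15 h, 6 probes were higher and 12 lower. Dpf1 (both probes), Kat2a, Kmt5a, Kmt5b, Kmt5c, Sirt3, Hdac5, Kat14, Setd4, Smarca4 and Kdm4b fell, and Setd5, Chd4, Kdm4c, Sirt2, Smarca1 and Chd9 rose. The 18 probes are 22.8% of the 79, against 38.6% of all tested probes (18.7% higher, 19.9% lower), and the groups did not overlap for 16.5% against 32.2%. With slide as a block 3 were higher and 5 lower, beside 28% of all probes. Without control replicate 2, 29 were called (9 higher, 20 lower).

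At 24 h, 5 probes were higher and 7 lower. Both Kmt5a probes, Kmt5b, Smarca4, Setd4, Smarcc2 and Sirt6 fell, and Sirt2, Kat6b, Smarca1, Setd5 and Smarcad1 rose. They are 15.2% of the chromatin probes, against 29.1% of all probes (14.7% higher, 14.4% lower), and the groups did not overlap for 16.5% against 26.3%. With slide as a block 2 were higher and none lower, beside 13.8% of all probes. Without control replicate 2, 25 were called (9 higher, 16 lower).

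Between neighbouring times, 8 h against 5 h gave 2 lower probes, both of Dpf1, which are 2.53% of the chromatin probes against 2.31% of all probes (1.23% higher, 1.07% lower). The groups did not overlap for 32.9% against 26.1%, and with slide as a block 1 was higher and 3 lower, beside 4.19% of all probes. At 15 h against 8 h, 2 were higher and 14 lower, 20.3% against 32.9% (16% higher, 16.9% lower). The groups did not overlap for 29.1% against 48.1%, and with slide as a block none passed, beside 6.7% of all probes. At 24 h against 15 h none was called, 0% against 1.04% (0.431% higher, 0.613% lower; 2.07% with slide as a block), and the groups did not overlap for 19% against 29.4%. The unadjusted p there was under 0.05 for 6 chromatin probes and 1568 probes in all. The first and last of these comparisons lie within a slide, and the second runs between slides. A test of any difference from the controls over the 5 times (F test of limma) passed for 36 of 79 chromatin probes, 45.6% against 54.5%.

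**Figure D1:**
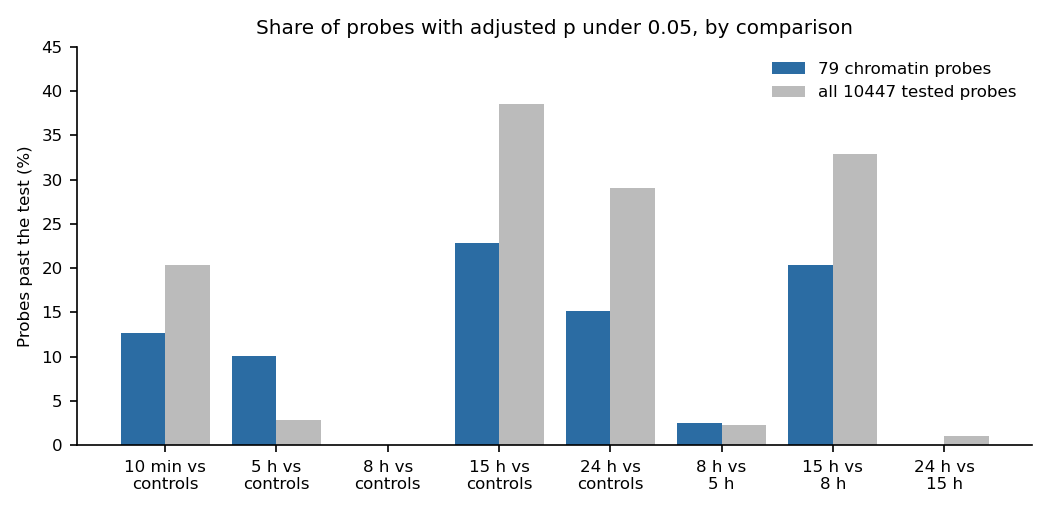
Percent of probes with an adjusted p under 0.05 (vertical axis, from 0) in each of the 8 comparisons, for the 79 chromatin probes (blue) and all 10447 tested probes (grey). The blue bar stands below the grey one at 10 min (12.7 against 20.4%), 15 h (22.8 against 38.6%) and 24 h (15.2 against 29.1%) and above it at 5 h (10.1 against 2.83%).

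**Figure D2:**
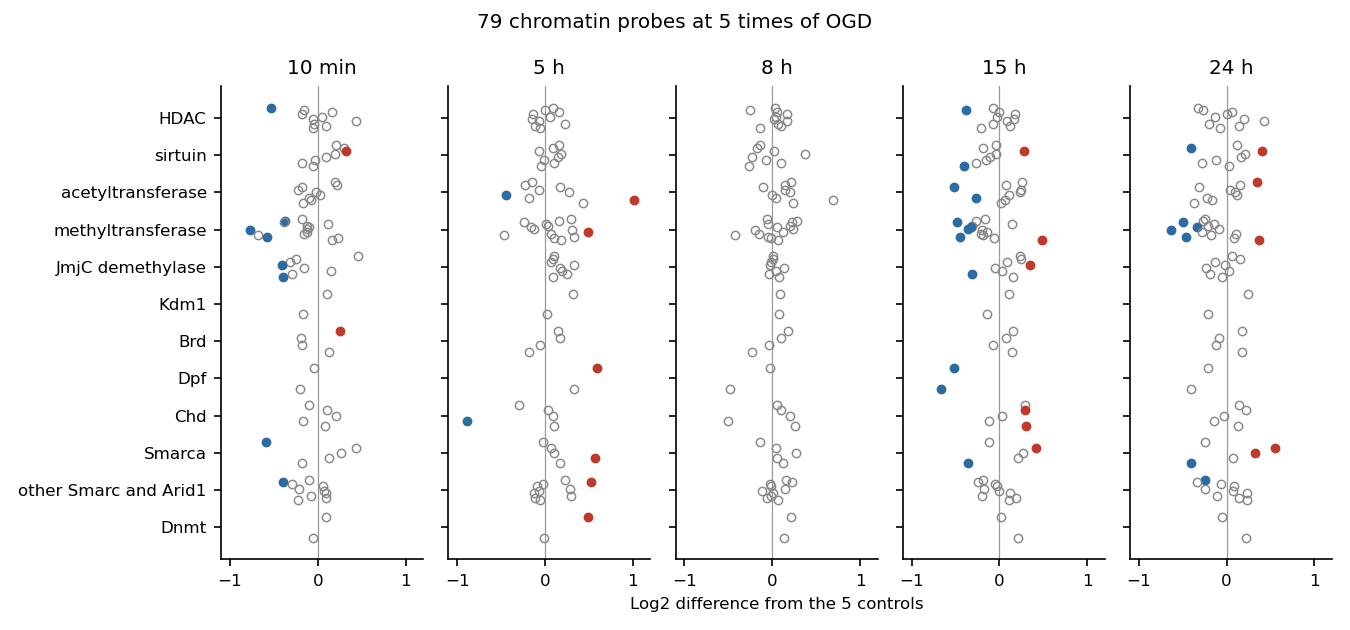
Log2 difference from the mean of the 5 controls (horizontal axis) for each of the 79 chromatin probes at 5 times, grouped by family (rows). Red points passed the test as higher, blue points as lower and open grey points did not pass; no point is filled at 8 h.

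Among the methyltransferases, Kmt5a, Kmt5b and Kmt5c act on lysine 20 of histone H4. Kmt5a (Set8, chr5:124439930-124462311) adds the first methyl group there, and the other two add the next ones. On Kmt5a probe 6200100 the controls read 8.02, 7.69, 8.08, 7.87 and 8.11, the 10 min arrays 7.38, 7.32 and 7.44, the 5 h arrays 8.47, 8.13 and 8.28, the 8 h arrays 7.79, 7.92 and 8.02, the 15 h arrays 7.31, 7.63 and 7.60 and the 24 h arrays 7.36, 7.54 and 7.58. Every array of 10 min, 15 h and 24 h lay below every control, control replicate 2 was the lowest control, and all 5 h arrays lay above all controls. Kmt5a differed from the controls by -0.58 ± 0.11 (SE; adjusted p = 0.00192) at 10 min, -0.45 ± 0.11 (SE; adjusted p = 0.00342) at 15 h and -0.46 ± 0.11 (SE; adjusted p = 0.00406) at 24 h. At 5 h the difference was 0.33 ± 0.11 (SE; adjusted p = 0.0924) and at 8 h -0.05 ± 0.11 (SE; adjusted p = 0.962). With slide as a block, so that each time is set against the controls of its own slide, the differences were -0.64 (adjusted p = 0.0293), -0.38 (adjusted p = 0.0525) and -0.39 (adjusted p = 0.072) at 10 min, 15 h and 24 h.

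The other tested Kmt5a probe (5220441) had the same sign at all 5 times but scattered more. Its controls read 8.47, 7.61, 8.84, 8.80 and 8.78, with control replicate 2 far below the rest, and the arrays read 7.90, 7.73 and 7.53 at 10 min, 8.66, 8.33 and 7.91 at 8 h and 7.90, 7.80 and 7.92 at 24 h. The ranges overlapped at 10 min and 24 h through control replicate 2 alone. It differed by -0.78 ± 0.22 (SE; adjusted p = 0.0202) and -0.63 ± 0.22 (SE; adjusted p = 0.0406) at those times, and slide-matched values were -0.75 (adjusted p = 0.156) and -0.36 (adjusted p = 0.418).

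Kmt5b, on the brighter of its probes (1850156), read 8.74, 8.00, 8.65, 8.60 and 8.34 in the controls, 8.52, 8.52 and 9.02 at 8 h, 8.00, 7.97 and 7.98 at 15 h and 8.11, 7.90 and 7.89 at 24 h. Control replicate 2 lay among the late arrays and the other controls lay above them. The difference was -0.48 ± 0.15 (SE; adjusted p = 0.0138) at 15 h and -0.50 ± 0.15 (SE; adjusted p = 0.016) at 24 h, and -0.70 ± 0.16 (SE; adjusted p = 0.00294) for 15 h against 8 h, where the groups did not overlap. Slide-matched differences at 15 h and 24 h were -0.34 (adjusted p = 0.165) and -0.35 (adjusted p = 0.203). The dim Kmt5b probe (2190292) was detected on 1 array of 8 h and none of 15 h. It was called lower at 15 h than at 8 h (adjusted p = 0.0218), but both groups were mostly at background, so no fold change is given.

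Kmt5c read 8.94, 8.58, 8.64, 8.81 and 8.56 in the controls, 8.78, 8.87 and 9.18 at 8 h, 8.32, 8.45 and 8.29 at 15 h and 8.68, 8.53 and 8.65 at 24 h. All 15 h arrays lay below all controls and all 8 h arrays. At 15 h Kmt5c differed by -0.35 ± 0.10 (SE; adjusted p = 0.0103) from the controls and by -0.59 ± 0.11 (SE; adjusted p = 0.000656) from 8 h. At 24 h the difference from the controls was -0.09 ± 0.10 (SE; adjusted p = 0.564), and the slide-matched value at 15 h was -0.26 (adjusted p = 0.117).

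Among the other methyltransferases, Setd1a, which methylates lysine 4 of histone H3 in a COMPASS complex, read 8.45, 8.26, 8.45, 8.46 and 8.61 in the controls, 7.96, 8.19 and 8.06 at 10 min, 8.84, 8.61 and 8.75 at 8 h and 8.11, 8.27 and 8.15 at 15 h. The 10 min arrays lay below all controls, and the 15 h arrays below all 8 h arrays. Setd1a differed by -0.37 ± 0.11 (SE; adjusted p = 0.0232) at 10 min and by -0.55 ± 0.12 (SE; adjusted p = 0.00212) for 15 h against 8 h, with slide-matched values of -0.38 (adjusted p = 0.164) and -0.37 (adjusted p = 0.253). Setd5, a SET domain protein linked in humans to intellectual disability, went the other way. Its controls read 8.18, 8.62, 8.39, 8.28 and 8.32, and its arrays 8.75, 9.02 and 8.77 at 15 h and 8.64, 8.82 and 8.73 at 24 h, all above the controls. Setd5 rose by 0.49 ± 0.12 (SE; adjusted p = 0.00232) and 0.37 ± 0.12 (SE; adjusted p = 0.0195), and by 0.42 ± 0.13 (SE; adjusted p = 0.016) from 8 h to 15 h; slide-matched, the first 2 were 0.34 (adjusted p = 0.0693) and 0.22 (adjusted p = 0.299).

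Setd3, which methylates actin, read 8.61, 8.53, 8.67, 8.81 and 8.79 in the controls and 9.23, 9.14 and 9.16 at 5 h, with no overlap, a rise of 0.49 ± 0.12 (SE; adjusted p = 0.0331) that was 0.38 (adjusted p = 0.319) when slide-matched. Setd4 read 6.20, 5.83, 5.77, 6.04 and 5.88 in the controls, 5.60, 5.38 and 5.89 at 15 h and 5.61, 5.63 and 5.58 at 24 h. Only the 24 h arrays lay wholly below the controls. The Setd4 difference was -0.32 ± 0.11 (SE; adjusted p = 0.0273) at 15 h and -0.34 ± 0.11 (SE; adjusted p = 0.0277) at 24 h, and -0.38 ± 0.12 (SE; adjusted p = 0.0238) for 15 h against 8 h, and slide-matched at 24 h -0.19 (adjusted p = 0.333). In all, 14 methyltransferase probes of 11 genes were tested, with 0 higher and 3 lower at 10 min, 1 higher and 4 lower at 15 h and at 24 h, and 1 higher and 6 lower at 15 h against 8 h. The shares of all probes called lower in these comparisons were 9.39, 19.9, 14.4 and 16.9%. The median differences of the methyltransferase probes were -0.14, -0.21 and -0.23 at 10 min, 15 h and 24 h, beside -0.01, -0.02 and -0.02 for all tested probes. At 5 h and 8 h their medians were 0.08 and 0.02, beside -0.005 and 0.002. At 5 h 1 was higher, beside 1.68% of all probes, and none lower, and at 8 h none was called. Both Kmt5a probes are among those lower at 10 min and 24 h.

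Ezh2, the catalytic subunit of Polycomb complex PRC2, was not called at any time. The controls read 8.40, 7.27, 8.31, 8.36 and 8.45, the 10 min arrays 7.69, 7.55 and 7.21, the 5 h arrays 6.98, 8.05 and 8.06, the 8 h arrays 8.45, 8.17 and 6.57, the 15 h arrays 7.98, 8.06 and 7.87 and the 24 h arrays 7.89, 7.93 and 8.11. Control replicate 2, 5 h replicate 1 and 8 h replicate 3, the arrays that stood apart, were each more than 1 unit below the other arrays of their group. The difference at 10 min was -0.68 ± 0.34 (SE; adjusted p = 0.159), and without control replicate 2 it was -0.90 (adjusted p = 0.0327). Ehmt1, which methylates lysine 9 of histone H3, was not called either: its brighter probe (6980014) differed by 0.23 ± 0.09 (SE; adjusted p = 0.076) at 10 min and by -0.01 to 0.10 at 5 h and 8 h, and by -0.06 and 0.08 at 15 h and 24 h. The dimmer one (5910086) ranged from -0.21 at 15 h to 0.10 at 24 h.

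Among acetyltransferases, Crebbp (CBP, the coactivator that binds phosphorylated CREB) gave the largest rise of any chromatin probe. Probe 5690035 read 5.85, 4.86, 5.32, 5.31 and 5.39 in the controls, 5.61, 5.10 and 5.11 at 10 min, 7.0, 6.0 and 6.07 at 5 h, 5.69, 5.58 and 6.87 at 8 h, 5.53, 5.31 and 5.42 at 15 h and 5.03, 5.45 and 5.07 at 24 h. All 5 h arrays lay above all controls, and the highest of 5 h and of 8 h were the arrays that stood apart. Crebbp was 2.01-fold higher at 5 h, 1.01 ± 0.27 (SE; adjusted p = 0.047), and was detected on 3 of 3 arrays there and on 2 of 5 controls. Without these 2 arrays the difference was 0.69 (adjusted p = 0.0638), without control replicate 2 0.89 (adjusted p = 0.0787), and slide-matched 1.01 (adjusted p = 0.233). At the other times it was -0.07 ± 0.27 (SE; adjusted p = 0.872) at 10 min, 0.70 ± 0.27 (SE; adjusted p = 0.772) at 8 h, 0.07 ± 0.27 (SE; adjusted p = 0.865) at 15 h and -0.16 ± 0.27 (SE; adjusted p = 0.68) at 24 h. The dimmer Crebbp probe (7040050), with the same sign at all 5 times, differed by 0.43 ± 0.25 (SE; adjusted p = 0.316) at 5 h.

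Kat2a (Gcn5), the acetyltransferase of the SAGA complex, read 7.37, 7.30, 7.85, 7.53 and 7.58 in the controls, 7.61, 7.52 and 7.14 at 8 h, 7.01, 7.08 and 6.95 at 15 h and 7.16, 7.35 and 7.14 at 24 h. All 15 h arrays lay below all other arrays named here. Kat2a differed at 15 h by -0.51 ± 0.13 (SE; adjusted p = 0.00341) and, slide-matched, by -0.56 (adjusted p = 0.0146). Against 8 h the difference was -0.41 ± 0.14 (SE; adjusted p = 0.0314). Kat5 (Tip60), the catalytic subunit of the NuA4 complex, read 5.72, 5.79, 5.41, 5.78 and 5.66 in the controls and 5.26, 4.96 and 5.47 at 5 h, where it was detected on 1 of 3 arrays. One 5 h array lay within the range of the controls. The Kat5 difference was -0.44 ± 0.11 (SE; adjusted p = 0.0362), and -0.49 (adjusted p = 0.176) slide-matched.

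Kat6b, an acetyltransferase of histone H3, read 9.56, 9.51, 9.25, 9.48 and 9.31 in the controls and 9.72, 9.90 and 9.70 at 24 h. The groups did not overlap. Kat6b rose by 0.35 ± 0.10 (SE; adjusted p = 0.0131), and the slide-matched difference was 0.39 (adjusted p = 0.0449); its dim second probe had the same sign at 4 of 5 times. Kat14, a subunit of the ATAC complex, was lower at 15 h, with a difference of -0.27 ± 0.09 (SE; adjusted p = 0.0271) from the controls and -0.31 ± 0.10 (SE; adjusted p = 0.0273) from 8 h. Of 9 tested acetyltransferase probes, 1 rose and 1 fell at 5 h, none rose and 2 fell at 15 h, and 1 rose and none fell at 24 h. Of all probes, 1.68% rose and 1.15% fell at 5 h, 18.7% rose and 19.9% fell at 15 h, and 14.7% rose and 14.4% fell at 24 h.

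Of 10 HDAC probes for 9 genes, 1 fell at 10 min and 1 at 15 h, and none was called at 5 h, 8 h or 24 h; the shares of all probes called lower were 9.39% at 10 min and 19.9% at 15 h, and 29.1% were called either way at 24 h. Hdac4, a class IIa deacetylase that moves between cytoplasm and nucleus with neuronal activity, read 8.23, 8.13, 8.44, 8.60 and 8.33 in the controls and 7.85, 7.99 and 7.61 at 10 min. All 10 min arrays lay below all controls. Hdac4 differed by -0.53 ± 0.15 (SE; adjusted p = 0.0188), and the slide-matched difference was -0.41 (adjusted p = 0.269). Its relative Hdac5 was lower at 15 h on the dimmer of its probes (2370035), with a difference of -0.38 ± 0.12 (SE; adjusted p = 0.0203); the brighter one (6370139) differed by -0.21 ± 0.09 (SE; adjusted p = 0.0842). For the class I enzymes the differences at 24 h were 0.20 ± 0.08 (SE; adjusted p = 0.0723) for Hdac1 and -0.20 ± 0.10 (SE; adjusted p = 0.141) for Hdac2.

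Sirt2, a deacetylase that acts on tubulin and is abundant in myelinating cells, was the sirtuin called at most times. The controls read 9.26, 9.10, 8.77, 9.15 and 8.96, the 10 min arrays 9.32, 9.32 and 9.47, the 5 h arrays 8.90, 9.14 and 8.90, the 8 h arrays 9.17, 9.05 and 8.97, the 15 h arrays 9.30, 9.41 and 9.25 and the 24 h arrays 9.45, 9.37 and 9.51. All arrays of 10 min and 24 h lay above all controls, and those of 5 h and 8 h lay among them. Sirt2 rose by 0.32 ± 0.10 (SE; adjusted p = 0.0306) at 10 min, 0.27 ± 0.10 (SE; adjusted p = 0.0391) at 15 h and 0.40 ± 0.10 (SE; adjusted p = 0.0062) at 24 h. Slide-matched, the 3 differences were 0.11 (adjusted p = 0.673), 0.39 (adjusted p = 0.0217) and 0.51 (adjusted p = 0.00923). The oligodendrocyte list had 0 of 7 genes higher and 3 lower at 10 min, 4 at 15 h and 3 at 24 h, with sums of 9112 to 11833 in the controls and 8821 to 9585 at 24 h.

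Sirt3, the main mitochondrial deacetylase, read on its dimmer probe (6040431) 6.66, 6.81, 7.05, 6.48 and 6.88 in the controls and 6.45, 6.63 and 6.03 at 15 h. One 15 h array lay within the range of the controls. Sirt3 differed by -0.41 ± 0.12 (SE; adjusted p = 0.0135), slide-matched -0.56 (adjusted p = 0.00941), while the brighter probe (4010440) differed by -0.16 ± 0.11 (SE; adjusted p = 0.274). Sirt6, a nuclear deacetylase, was called lower at 24 h (adjusted p = 0.0355) on a probe not well above background on any 24 h array and on 4 of 5 controls, so no fold change is given. Sirt1 differed by -0.41 ± 0.15 (SE; adjusted p = 0.0379) for 15 h against 8 h, and Sirt7, which acts in the nucleolus, was not called.

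Of the JmjC demethylases, Kdm6a (Utx), which removes methyl groups from lysine 27 of histone H3, read on probe 6770452 8.98, 8.41, 8.53, 8.86 and 8.57 in the controls and 8.22, 8.25 and 8.37 at 10 min. All 10 min arrays lay below all controls. Kdm6a differed by -0.39 ± 0.10 (SE; adjusted p = 0.0139), and by -0.70 (adjusted p = 0.00356) against control replicate 1, the 1 control on that slide and the highest of the 5. Its other probe (2900017), equally bright, differed by -0.31 ± 0.12 (SE; adjusted p = 0.069). Kdm4c, which acts on lysine 9 of histone H3, read 5.86, 6.02, 5.87, 5.96 and 5.66 in the controls, 5.34, 5.50 and 5.54 at 10 min, 6.48, 6.07 and 6.07 at 5 h and 6.30, 5.96 and 6.41 at 15 h. The 10 min arrays lay below all controls, and 2 of the 15 h arrays above them. Kdm4c differed by -0.41 ± 0.12 (SE; adjusted p = 0.0219) at 10 min and by 0.35 ± 0.12 (SE; adjusted p = 0.0263) at 15 h, slide-matched -0.40 (adjusted p = 0.187) and 0.28 (adjusted p = 0.186). Kdm4b, a gene known in human cells as a target of hypoxia-inducible factor, was lower at 15 h, with a difference of -0.31 ± 0.12 (SE; adjusted p = 0.0442), and differed by 0.26 ± 0.12 (SE; adjusted p = 0.216) at 5 h. Of 8 JmjC probes for 7 genes, 2 fell at 10 min, and 1 rose and 1 fell at 15 h, beside 9.39% of all probes lower at 10 min and 18.7% higher and 19.9% lower at 15 h. The flavin-dependent demethylases were not called: at 5 h the difference was 0.02 ± 0.09 (SE; adjusted p = 0.914) for Kdm1a and 0.32 ± 0.13 (SE; adjusted p = 0.167) for Kdm1b.

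Dpf1 (Baf45b), a subunit that BAF complexes of neurons carry, had the smallest F test p of the 79 probes. On probe 3840435 the controls read 6.14, 5.70, 5.96, 5.65 and 5.86, the 10 min arrays 5.73, 5.74 and 6.0, the 5 h arrays 6.43, 6.35 and 6.57, the 8 h arrays 5.67, 5.86 and 5.97, the 15 h arrays 5.23, 5.33 and 5.46 and the 24 h arrays 5.71, 5.53 and 5.69. All 5 h arrays lay above and all 15 h arrays below every other array. Dpf1 rose at 5 h by 0.59 ± 0.11 (SE; adjusted p = 0.0145), and at 15 h, where it was detected on 1 of 3 arrays, it differed by -0.52 ± 0.11 (SE; adjusted p = 0.00112). The slide-matched differences were 0.69 (adjusted p = 0.0608) and -0.49 (adjusted p = 0.00855). Probe 4540041 read 5.74, 5.42, 6.06, 5.60 and 5.69 in the controls, 6.06, 6.10 and 5.95 at 5 h, 5.04, 5.35 and 5.28 at 8 h and 5.34, 4.89 and 4.90 at 15 h. Again the 15 h arrays lay below all controls. Its differences were 0.33 ± 0.16 (SE; adjusted p = 0.225) at 5 h and -0.66 ± 0.16 (SE; adjusted p = 0.00264) at 15 h, the latter -0.70 (adjusted p = 0.017) slide-matched.

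Within slide 2, Dpf1 was lower at 8 h than at 5 h on both probes. The difference was -0.62 ± 0.13 (SE; adjusted p = 0.0182) on the first, and the second, not well above background on any 8 h array, was at least 1.53-fold lower (adjusted p = 0.0248). Without the 2 arrays that stood apart they were -0.70 (adjusted p = 0.0383) and -0.83 (adjusted p = 0.0688). Both probes gave signals near background, where differences are compressed.

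Arid1a, the large DNA-binding BAF subunit, read 7.62, 7.28, 7.56, 8.01 and 7.99 in the controls, 7.18, 7.39 and 7.31 at 10 min, 8.14, 8.18 and 8.33 at 5 h, 8.02, 7.90 and 7.82 at 8 h, 7.44, 7.50 and 7.40 at 15 h and 7.47, 7.34 and 7.25 at 24 h. The controls themselves spread by slide: control replicates 4 and 5, on the slide of 5 h and 8 h, were the highest of the 5. Arid1a differed by -0.40 ± 0.13 (SE; adjusted p = 0.0359) at 10 min and 0.52 ± 0.13 (SE; adjusted p = 0.0376) at 5 h, slide-matched -0.33 (adjusted p = 0.136) and 0.22 (adjusted p = 0.436). For 15 h against 8 h the difference was -0.47 ± 0.15 (SE; adjusted p = 0.0177), and 0.11 (adjusted p = 0.726) with slide as a block, the opposite sign. Smarca4 (Brg1), a BAF ATPase, read 8.67, 7.99, 8.14, 8.46 and 8.39 in the controls, 8.33, 8.40 and 8.62 at 8 h, 7.87, 8.10 and 7.94 at 15 h and 7.88, 7.97 and 7.93 at 24 h. The 24 h arrays lay below all controls, control replicate 2 closest to them. Smarca4 differed by -0.36 ± 0.13 (SE; adjusted p = 0.0343) at 15 h, -0.40 ± 0.13 (SE; adjusted p = 0.0241) at 24 h and -0.48 ± 0.14 (SE; adjusted p = 0.0145) for 15 h against 8 h. The slide-matched differences at 15 h and 24 h were -0.09 (adjusted p = 0.615) and -0.14 (adjusted p = 0.51).

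Smarcc2 (Baf170), a BAF core subunit, was lower at 24 h, with a difference of -0.24 ± 0.08 (SE; adjusted p = 0.0342), and at 15 h against 8 h, with -0.34 ± 0.09 (SE; adjusted p = 0.00761), as was Smarcd1 (Baf60a) in the last comparison, with -0.32 ± 0.12 (SE; adjusted p = 0.0435). Smarcb1, the core subunit with the brightest probe of this group, was not called in any comparison and differed by 0.19 ± 0.09 (SE; adjusted p = 0.087) at 15 h. Brd7, a bromodomain subunit of the PBAF form, read 8.38, 8.46, 8.40, 8.26 and 8.31 in the controls and 8.56, 8.59 and 8.68 at 10 min, with no overlap, a rise of 0.25 ± 0.08 (SE; adjusted p = 0.03) that was 0.23 (adjusted p = 0.212) slide-matched; its second probe (6200746) differed by 0.12 ± 0.15 (SE; adjusted p = 0.586).

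Among the remodelers outside BAF, Smarca1 and Smarca5 are the ISWI ATPases. Smarca1 read 9.44, 10.29, 9.39, 9.41 and 9.58 in the controls, 10.07, 9.80 and 10.23 at 15 h and 10.23, 10.10 and 10.17 at 24 h. Control replicate 2 lay above all of the late arrays, and the other controls lay below all of them. Smarca1 rose by 0.41 ± 0.16 (SE; adjusted p = 0.0459) and 0.55 ± 0.16 (SE; adjusted p = 0.0135), slide-matched 0.19 (adjusted p = 0.479) and 0.33 (adjusted p = 0.268). Smarca5 read 5.45, 5.61, 5.38, 5.73 and 5.56 in the controls and 6.24, 6.05 and 6.07 at 5 h, with no overlap, a rise of 0.57 ± 0.14 (SE; adjusted p = 0.0376), slide-matched 0.48 (adjusted p = 0.316). Smarca5-ps was lower at 10 min, with a difference of -0.59 ± 0.18 (SE; adjusted p = 0.0249), and -1.24 (adjusted p = 0.00272) against control replicate 1. That control, the only one on the slide, read 7.28 and was the highest of the 5. Control replicate 2, at 6.05, lay within the 10 min arrays, which read 5.77 to 6.24. Smarcad1, a remodeler of heterochromatin, rose at 24 h by 0.32 ± 0.11 (SE; adjusted p = 0.0358).

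Chd4, the ATPase of the NuRD corepressor complex, had 3 tested probes. The brightest (6380717) read 9.03, 9.17, 9.03, 9.02 and 8.99 in the controls and 9.22, 9.53 and 9.30 at 15 h, with no overlap. It rose at 15 h by 0.30 ± 0.09 (SE; adjusted p = 0.0138), slide-matched 0.25 (adjusted p = 0.12). The dim probe (6130338), not well above background on any 5 h array, was at least 1.24-fold lower at 5 h (adjusted p = 0.045), and had the opposite sign to the bright probe at all 5 times. The third (5420059) differed by 0.30 ± 0.13 (SE; adjusted p = 0.0879) at 15 h. Chd9 rose at 15 h by 0.29 ± 0.11 (SE; adjusted p = 0.0469), and Chd8, a CHD protein linked in humans to autism, differed by 0.03 ± 0.08 (SE; adjusted p = 0.811).

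Dnmt1, which copies CpG methylation onto new DNA strands, read 8.55, 8.33, 8.58, 8.55 and 8.44 in the controls, 9.04, 8.93 and 8.99 at 5 h, 8.51, 8.65 and 8.95 at 8 h and 8.56, 8.44 and 8.54 at 15 h. All 5 h arrays lay above all controls, and of the later arrays 8 h replicate 3 reached their level. Dnmt1 rose at 5 h by 0.50 ± 0.10 (SE; adjusted p = 0.0158), slide-matched 0.49 (adjusted p = 0.148). Dnmt3b, a de novo methyltransferase, was not called: it differed by -0.01 ± 0.12 (SE; adjusted p = 0.96) at 5 h, 0.22 ± 0.12 (SE; adjusted p = 0.147) at 15 h and 0.22 ± 0.12 (SE; adjusted p = 0.166) at 24 h.

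**Figure D3:**
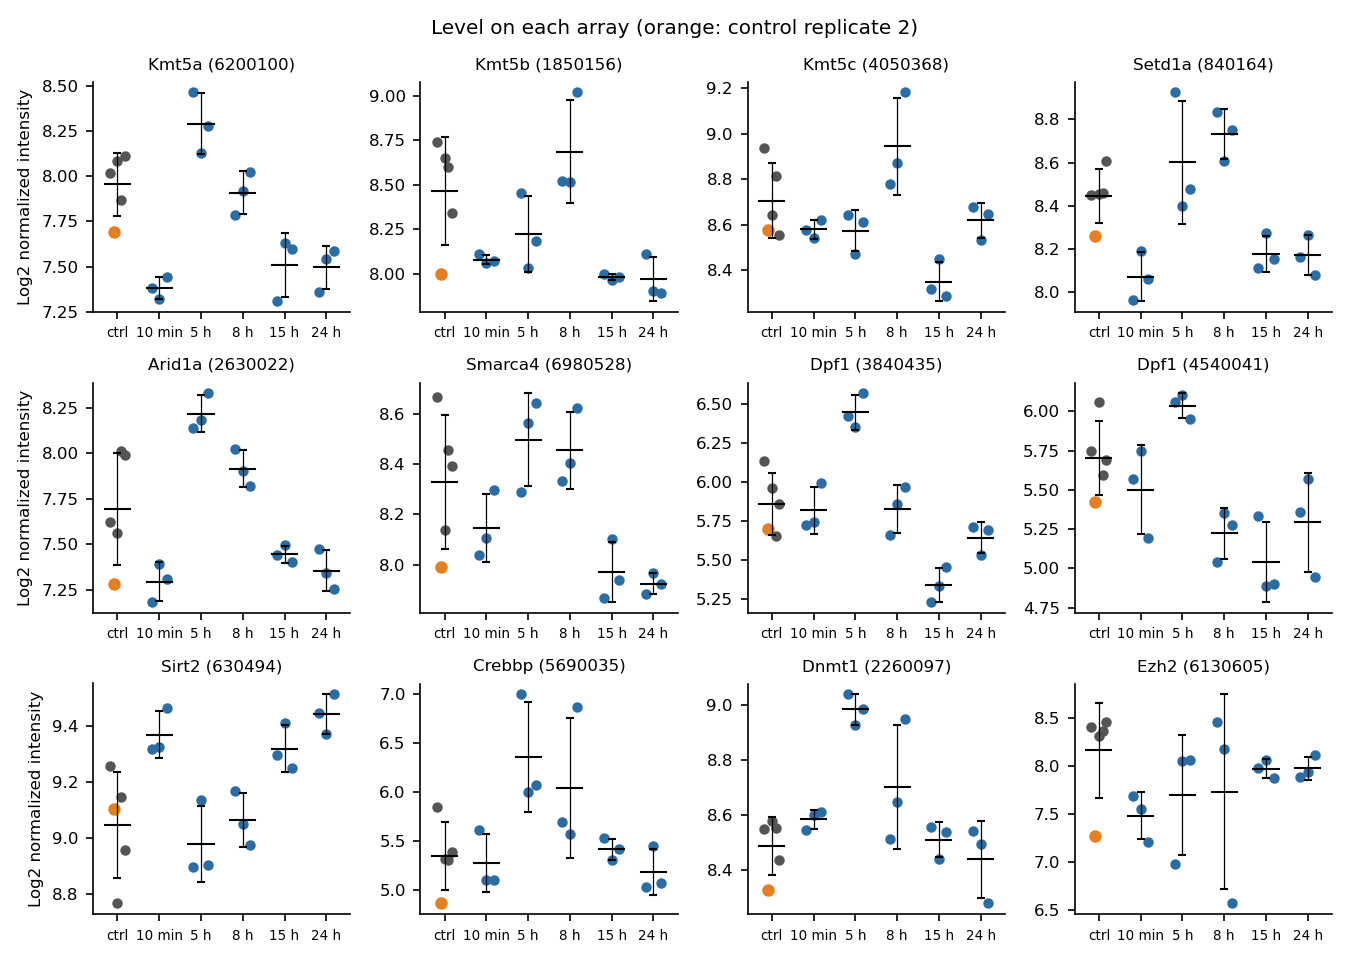
Log2 normalized intensity (vertical axis, a separate scale in each panel that does not start at 0) on each of the 20 arrays for 12 probes, by group. Points are arrays, bars the mean and error bars the SD (n = 5 controls, n = 3 per time); orange marks control replicate 2, which is the lowest control for Kmt5a, Kmt5b, Setd1a, Arid1a, Smarca4, Dpf1 (4540041), Crebbp, Dnmt1 and Ezh2.

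**Figure D4:**
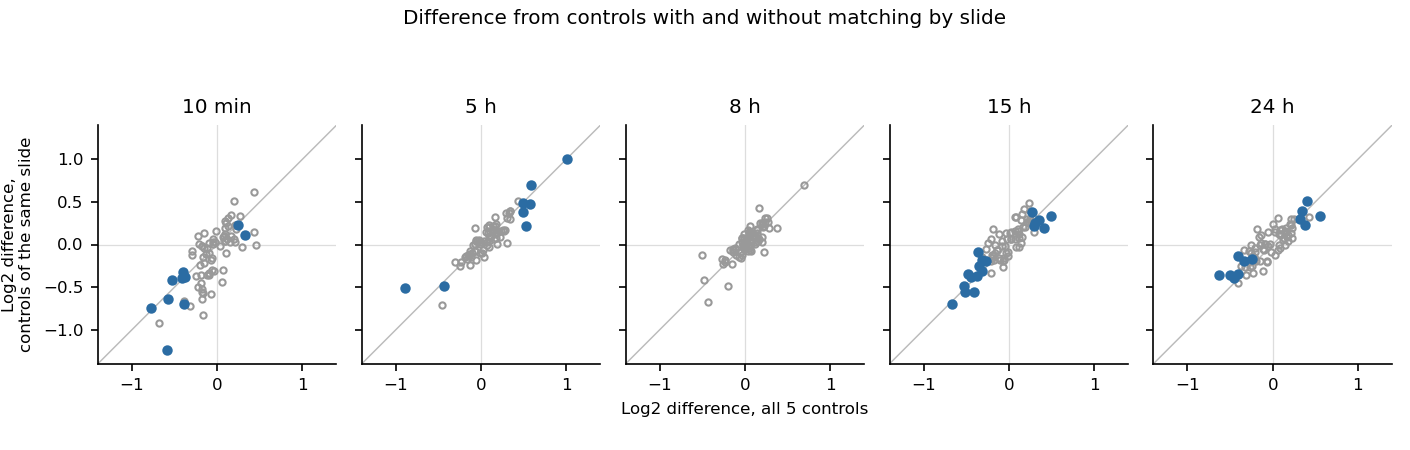
Log2 difference from the controls with slide as a block (vertical axis) against the difference from all 5 controls (horizontal axis) for the 79 chromatin probes at each time; filled points passed the test against all controls, and the line marks equality. At 15 h and 24 h most filled points keep their sign and lie nearer to 0 on the vertical axis, and at 10 min the vertical axis rests on 1 control.

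With 14 genes measured by more than 1 tested probe, 15 pairs of brighter and dimmer probe could be set side by side. In 4 pairs, those of Crebbp, Dpf1, Kmt5a and Sirt5, the difference from the controls had the same sign at all 5 times. The pair of Chd4 (6380717) and (6130338) shared the sign at 0 of 5 times, and that of Smarcc1 at 1 of 5. No pair was called in opposite directions within 1 comparison. For the 2 probes of Kdm6a, with mean levels of 8.68 and 8.65, the differences from the controls lay within 0.089 of each other at every time.

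The slide-matched test passed for 12 of the 56 called differences that the naming rule covers. These were Kmt5a, Kdm6a and Smarca5-ps at 10 min, both Dpf1 probes, Kat2a, Sirt3 and Sirt2 at 15 h, Sirt2 and Kat6b at 24 h, and both Dpf1 probes at 8 h against 5 h. Those at 10 min rest on control replicate 1, the highest control on the Kdm6a and Smarca5-ps probes. Control replicate 2 lay on the side of the treated arrays for 9 of the 10 probes called at 10 min, 16 of 18 at 15 h and 12 of 12 at 24 h, and for 1 of 8 at 5 h. Across the 79 probes, the deviation of control replicate 2 from the other controls had a correlation of 0.67 to 0.76 with the deviations seen at 10 min, a description over probes that share a normalization and controls.

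Partners of these enzymes that the symbol rule does not reach gave the following counts among their tested genes. Each gene was taken by its tested probe with the highest mean level, and counts are given at some of the times for each list. Beside them stand, for all tested probes, 11% higher and 9.39% lower at 10 min, 1.68% and 1.15% at 5 h, 18.7% and 19.9% at 15 h, and 14.7% and 14.4% at 24 h. Each p with slide as a block is given after the unblocked one. Of 13 further SWI/SNF subunits, 1 rose and 4 fell at 10 min, 1 rose at 5 h, and 3 fell at 15 h and at 24 h. Actl6b (Baf53b), which like Dpf1 belongs to the BAF complex of neurons, fell by 0.65 ± 0.13 at 15 h (adjusted p = 0.000876, 0.0476 slide-matched), and Bcl11a fell by 0.36 ± 0.09 (adjusted p = 0.00324, 0.0274 slide-matched). Ss18l1, another of the 13, did not fall with them, at -0.04 ± 0.10 (adjusted p = 0.792, 0.148 slide-matched). It was the subunit that rose at 10 min, by 0.28 ± 0.10 (adjusted p = 0.0475, 0.0151 slide-matched). Of 7 arginine methyltransferases, 1 rose and 4 fell at 15 h, among them Prmt8, an enzyme found mainly in brain, which fell by 0.86 ± 0.11 (adjusted p = 8.45e-06, 0.000285 slide-matched), and Prmt1, which makes most asymmetric dimethylarginine and fell by 0.36 ± 0.08 (adjusted p = 0.00177, 0.0152 slide-matched). Of 14 histone chaperones, 1 rose and 4 fell at 10 min, 1 rose and 6 fell at 15 h, and 2 rose and 3 fell at 24 h. Among them Nap1l3 fell at 15 h by 0.67 ± 0.11 (adjusted p = 7.96e-05, 0.00131 slide-matched), while Anp32a rose at 24 h by 0.53 ± 0.10 (adjusted p = 0.000436, 0.0189 slide-matched).

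Of 16 Polycomb subunits, 3 fell at 10 min, with Mtf2, which helps to bring PRC2 to CpG islands, at -0.78 ± 0.16 (adjusted p = 0.00258, 0.114 slide-matched), and at 15 h 3 rose and 1 fell. At 24 h Pcgf3 fell by 0.56 ± 0.12 (adjusted p = 0.00144, 0.0463 slide-matched). Of 9 COMPASS partners none rose and 3 fell at 15 h, among them Wdr5, a subunit shared by these complexes, which fell by 0.42 ± 0.10 (adjusted p = 0.00211, 0.0486 slide-matched), and Cxxc1, their CpG-binding subunit, differed from 8 h by -0.60 ± 0.11 (adjusted p = 0.000438, 0.127 slide-matched). Of 7 other lysine methyltransferases 2 fell at 10 min, 1 at 15 h and 1 at 24 h. Dot1l, which methylates histone H3, fell by 0.83 ± 0.16 at 10 min (adjusted p = 0.002, 0.0108 slide-matched) and by 0.84 ± 0.16 at 24 h (adjusted p = 0.000694, 0.031 slide-matched). Setmar rose from 5 h to 8 h by 0.59 ± 0.15 (adjusted p = 0.0467, 0.0408 slide-matched).

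Of 10 methyl-DNA and heterochromatin proteins, none rose and 3 fell at 10 min and 4 rose and 1 fell at 15 h, with Hmgn3 at 0.55 ± 0.10 (adjusted p = 0.000322, 0.0189 slide-matched), and Trim28 differed between 15 h and 8 h by -0.52 ± 0.11 (adjusted p = 0.00119, 0.155 slide-matched). Of 16 NuRD, Sin3, CoREST and NCoR subunits, 2 rose and 1 fell at 15 h, and Gatad2b, a NuRD subunit, at 24 h fell by 0.54 ± 0.16 (adjusted p = 0.0129, 0.261 slide-matched), while Gps2 differed between 15 h and 8 h by -0.45 ± 0.14 (adjusted p = 0.0153, 0.447 slide-matched). Of 16 acetyltransferase partners, 1 rose and 4 fell at 15 h, and at 24 h Taf5l fell by 0.33 ± 0.08 (adjusted p = 0.00468, 0.0927 slide-matched) and Ing3 rose by 0.48 ± 0.12 (adjusted p = 0.00482, 0.0671 slide-matched). Of 9 ISWI, INO80 and SRCAP subunits, 1 rose and 1 fell at 10 min, Ino80b with a difference of 0.38 ± 0.13 (adjusted p = 0.0393, 0.693 slide-matched) and Ino80 with -0.39 ± 0.10 (adjusted p = 0.0109, 0.247 slide-matched). None of the genes of these 10 lists was called at 8 h.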

How the data were processed

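The members and the gene lists were chosen with earlier results of these data known. The deposited profile, made with BeadStudio 3.1.7 per the file headers, gives each probe's average signal (a raw intensity) and a detection score. Each of the 20 arrays has 8 columns, and 120 columns of per-array values (bead numbers, errors and the like) were not used. The authors' normalized tables hold a ratio to the controls and were used as an alternative; their control columns and row names do not match the profile, so arrays and probes were named by the profile, through identical values in the authors' tables and the platform annotation. In all 20614 probes were named and 4006 were not. Which exon a probe lies in was not analysed here.

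Intensities, without 7 bacterial control probes, were background-corrected by normexp with detection values (offset 16), quantile-normalized and put on a log2 scale with limma 3.58.1 in R 4.3.3. Probes detected at a p under 0.01 on 3 or more arrays were kept (10447). One linear model with 6 group means was fitted over all arrays with 14 residual degrees of freedom, followed by eBayes, and its steps were tested on simulated data. Adjusted p-values are limma's, at 0.05 within each comparison. Precision is limited by the number of arrays: the median SE of the chromatin probes was 0.121 against the controls and 0.135 between times. Not well above background on all arrays of a group gives a bound: the other group's mean against the higher of the lowest detected signal and the probe's own. Slide was tried as a fixed and as a random block; further alternatives were a replicate block, 75th percentile scaling, no background correction, the authors' normalized values, other filters on detection, leaving out arrays, fits of only the groups compared, a threshold of 0.01 and naming by the normalized table's rows. Genes were named by rule: up to 8 called probes per direction and comparison with the smallest adjusted p, Crebbp, Ezh2 and Ehmt1 at every time, per family the 2 probes with the smallest F test p and the brightest one, genes with several probes, 2 genes per partner list, and probes at the detection limit.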

Additional observations from a re-analysis of the deposited data

Results flagged for a closer look

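Of 37 probes examined for a lone control array by Dixon's test (critical value 0.71), control replicate 2 stood out on 3, where chance gives about 1 in 20. Its level was 9.17 on Chd4 (6380717) against 8.99 to 9.03 in the others, 10.29 on Smarca1 against 9.39 to 9.58, and 7.27 on Ezh2 against 8.31 to 8.45.

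For 3 genes called in opposite directions at different times, the difference between the times was computed in the same limma fit. The genes were chosen by those calls, so a small p without the block follows from the choice and adds no support. The fit with the block uses the same arrays, so its p is no independent support either. Arid1a was higher at 5 h than at 10 min by 0.92 (adjusted p = 0.000137), and the difference had an adjusted p of 0.0849 with slide as a block. Kdm4c was higher at 15 h than at 10 min by 0.77 (adjusted p = 0.000677, and 0.089 with the block). Dpf1 (3840435) differed between 15 h and 5 h by -1.11 (adjusted p = 1.7e-06, and 0.000839 with the block).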

How the results depend on the processing

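Counts are of called chromatin probes, in the order 10 min, 5 h, 15 h and 24 h against controls, then 8 h against 5 h and 15 h against 8 h, beside 10, 8, 18, 12, 2 and 16 as reported. Slide as a fixed block gave 6, 0, 8, 2, 4 and 0, and as a random block 5, 2, 11, 5, 5 and 4. Of all 10447 probes, the reported fit called 2134, 296, 4029, 3040, 241 and 3435 in that order. With slide as a fixed block 1236, 0, 2930, 1446, 438 and 700 of them passed. Where no count over all probes is given, a changed chromatin count may follow the whole array. Slide and time are nearly the same split, so the 10 min block rests on 1 control and 15 h against 8 h on the controls of 2 slides. Fits of only the groups compared gave 2, 0, 8, 4, 2 and 13, and a threshold of 0.01 gave 1, 0, 5, 2, 0 and 5. Counts past 1.5 times the reported one also came from the authors' normalized values (17 at 5 h, 9 for 8 h against 5 h), from no filter on detection (4 at 5 h), from leaving out 5 h replicate 1 and 8 h replicate 3 together (3 at 5 h, 1 for 8 h against 5 h) and from naming by the normalized table's rows (1 at 5 h). Leaving out 5 h replicate 1 and 8 h replicate 3 gave 245 of all probes at 5 h and 97 for 8 h against 5 h. For 24 h against 15 h, only the groups compared gave 2 and the other naming 1, beside 0. The F test over all times passed for 36 probes, for 15 and 20 with slide as a fixed or random block and for 22 at 0.01. Beyond these, the replicate block and the removals of 1 array below, no alternative moved a count by over 1.5 times.

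Leaving out 1 array of the groups compared gave 2 to 20 calls at 10 min, 1 to 8 at 5 h, 0 to 0 at 8 h, 8 to 29 at 15 h, 3 to 25 at 24 h, 0 to 6 for 8 h against 5 h, 9 to 13 for 15 h against 8 h, 0 to 0 for 24 h against 15 h and 28 to 47 for the F test. Counts rose without control replicate 2 (20, 29 and 25 at 10 min, 15 h and 24 h), and over all probes to 3532, 4744 and 4075. Its removal also changes the pooled spread, and gave 3 higher and 5 lower for 8 h against 5 h and 4 higher and 15 lower for 15 h against 8 h. Over all probes, 717 and 3900 passed in these 2 comparisons. Counts also rose for 8 h against 5 h without 8 h replicate 3 (6). Counts fell at 10 min without control replicate 5 (5) or 10 min replicates 1, 2 or 3 (2, 3 and 4), at 5 h without control replicates 1, 2 or 3 (3, 3 and 4) or 5 h replicates 1, 2 or 3 (2, 1 and 1), at 15 h without replicates 1 or 3 (11 and 8), and at 24 h without replicates 1, 2 or 3 (7, 6 and 3). For 8 h against 5 h no call was left without 5 h replicates 2 or 3 or 8 h replicates 1 or 2 (0 each), and for 15 h against 8 h leaving out 8 h replicates 1 or 2 or 15 h replicates 1 or 3 gave 10, 10, 10 and 9.

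Replicate numbers shared between groups do not pair the arrays: over 45 pairs of arrays with the same number, deviations from the group means correlated at -0.59 to 0.45 (median 0), and 10 pairs were over 0.1. A replicate block gave 1, 5, 10, 5, 2 and 13 calls.

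Of 56 called differences of named probes, 12 passed with slide as a fixed block, 28 with a random block (correlation 0.217), 31 with a replicate block, 47 with 75th percentile scaling, 55 with no background correction, 42 with the authors' values and 42 with no filter. Arid1a for 15 h against 8 h turned from -0.47 to 0.11 with slide as a fixed block, where the controls of the slides differ. Under every removal of 1 array of the groups compared, 14 of the 56 passed: Kmt5a (6200100) at 10 min, 15 h and 24 h, both Dpf1 probes, Kat2a, Kmt5b and Setd5 at 15 h, Sirt2 at 24 h, and Dpf1 (3840435), Kmt5b, Kmt5c, Setd1a and Smarcc2 for 15 h against 8 h. Signal near background limits the probes of Dpf1, Crebbp, Sirt6 and the dim probes of Chd4 and Kmt5b.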
